A study of Mus musculus with 12 samples.

Results

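The hypoxia response and glycolysis genes are 35 genes chosen by name. They are 13 enzymes of glycolysis and 22 other genes known as targets or regulators of the hypoxia-inducible factors (HIF), among them glucose transporters, kinases that set the use of glucose, vascular signals, oxygen sensors, HIF alpha subunits, mitophagy receptors and collagen-modifying enzymes. The choice was by gene name. The 35 names matched 36 of 57180 gene rows, because Aldoa was listed under 2 identifiers, and 34 of these rows had enough reads to be tested beside 19350 rows in all. Car9, a carbonic anhydrase induced by hypoxia, had at most 0.214 counts per 1000000 counts (CPM) in any liver, and the second Aldoa row (ENSMUSG00000114515.3) had at most 0.155 CPM. Neither row was tested.

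Total RNA from the livers of 12 mice was sequenced, with 3 female and 3 male mice of each genotype. Every mouse was Csa-/-, a model of Cockayne syndrome, and had received AAV9-CSA into the cerebral ventricles as a newborn. The vector carries a human CSA cDNA under the chicken beta-actin promoter. The Het_F and Het_M mice were Csa-/- Xpa+/- littermates of matched age without signs of disease, and the KO_F and KO_M mice are the CX mice, which were taken at the humane endpoint. The study writes the KO genotype as Csa-/- Xpa+/+ in its RNA-seq methods and as Csa-/- Xpa-/- elsewhere, and the age of single mice is not given in the sources used here. Only KO mice had reached the endpoint, so genotype and disease stage cannot be told apart in these groups.

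Cells that lack oxygen stabilise HIF-1 alpha and HIF-2 alpha, because the prolyl hydroxylases that mark these proteins for destruction need oxygen as a substrate. The stabilised subunit pairs with ARNT, binds short DNA motifs and raises the transcription of glucose transporters, glycolytic enzymes and vascular growth signals. Hepatocytes handle glucose with their own isoforms, among them liver pyruvate kinase (Pklr) and the transporter GLUT2 (Slc2a2). Pyruvate kinase M and GLUT1 are the corresponding forms of many other cells. The liver lobule has an oxygen gradient, and the pericentral end receives the least.

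The livers matched their label. The 8 hepatocyte markers summed to 58642 to 79965 CPM in Het livers and 73909 to 129081 CPM in KO livers, of which Alb (albumin) alone was 35108 to 58971 and 55052 to 108600 CPM. Between 30044812 and 43634073 estimated counts per liver were assigned to genes. Xpa lay at 3.10 to 6.34 CPM in the Het livers and at 0.992 to 1.83 CPM in the KO livers, a log2 fold change of -1.83 ± 0.16 (SE, adjusted p = 4.14e-05, edgeR). Ercc8, the mouse Csa gene deleted in all of these mice, still had reads, at 5.10 to 8.68 CPM in Het and 14.8 to 33.99 CPM in KO livers. Levels are in CPM unless stated otherwise, scaled between livers with edgeR's TMM factors. A gene is called where its p-value from edgeR's quasi-likelihood test, adjusted over all 19350 genes, is under 0.05. Log2 fold changes are KO against Het, given with their standard error (SE).

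Short promoter stretches are shown for the called members because they hold the letters that HIF binds. The core of a hypoxia response element is ACGTG or GCGTG, and both were searched on both strands of RefSeq promoter windows, which run from 250 bases before to 50 bases after each start site (build GRCm38.p6, not the GRCm39 build of the expression tables). ACGTG lies within the E-box CACGTG, where it matches on each strand and was counted on each. Windows were found for 30 of the 35 members, and none for Bnip3l, Epas1, Ndrg1, Plod2 and Slc2a3. Each stretch below has 30 bases around the closest match upstream of the start site, in the window of that gene with most matches, read 5′ to 3′ along the gene's strand, with matches in capitals. Matches downstream of the start site were counted but are not shown.
Slc2a1: gtcccgccccggACGTGctccccaggcccc
Hk2: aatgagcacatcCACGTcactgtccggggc
Pkm: ctccgatccggtCACGTccgcgccgcagca
Pgk1: aaatggaagtagCACGTctcactagtctcg
Adm: ggcaaatctgacCACGCccaccgtccgccc
Kdm3a: ccgggaggctgtGCGTGtcttgtgagagag
Hif1a: tggctgagagcaACGTGggctggggtgggg
Ldha: CGTGggttcccgCACGTccgctgggctccc
Bnip3: ggctccgccgccGCGTGcgtcccgccccgc

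The first 7 of these genes were called in the comparison of genotypes, and Ldha and Bnip3 are uncalled members with many matches. The stretches lie at chr4:119108697-119108726 (plus strand, Slc2a1), chr6:82774489-82774518 (minus strand, Hk2), chr9:59657140-59657169 (plus strand, Pkm), chrX:106186957-106186986 (plus strand, Pgk1), chr7:110627591-110627620 (plus strand, Adm), chr6:71632927-71632956 (minus strand, Kdm3a), chr12:73907785-73907814 (plus strand, Hif1a), chr7:46845758-46845787 (plus strand, Ldha) and chr7:138909524-138909553 (minus strand, Bnip3). Of the 44 member windows 77.3% held a match, beside 43.8% of 32851 mouse windows, which were not matched to the members for base composition. A match was present for 7 of the 8 called members with a window, all but Gpi1, and for 21 of the 22 uncalled members with a window. Ldha had 7 matches in a single window, the most of any member, and was not called. Hk1, also uncalled, had 5 matches, as Bnip3 did.

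Over both sexes 8 of the 34 tested members rose in KO livers and 1 fell. Those that rose were the enzymes Hk2, Gpi1, Pgk1 and Pkm, the transporters Slc2a1 and Slc2a3, the vasodilator peptide adrenomedullin (Adm) and the histone demethylase Kdm3a. The gene that fell was Hif1a. Called higher were 23.5% of the members, beside 12.2% of all tested genes, and called lower were 2.9%, beside 10.2% of all tested genes. The median log2 fold change was 0.21 over the 34 members and 0.018 over all tested genes. A positive value was found for 25 of 34 members (73.5%), beside 51.8% of all tested genes. The 6 KO livers lay entirely above the 6 Het livers for Gpi1 and Pgk1, which is 5.9% of the members beside 4.72% of all tested genes. No member lay entirely below, as 4.64% of all tested genes did.

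**Figure D1:**
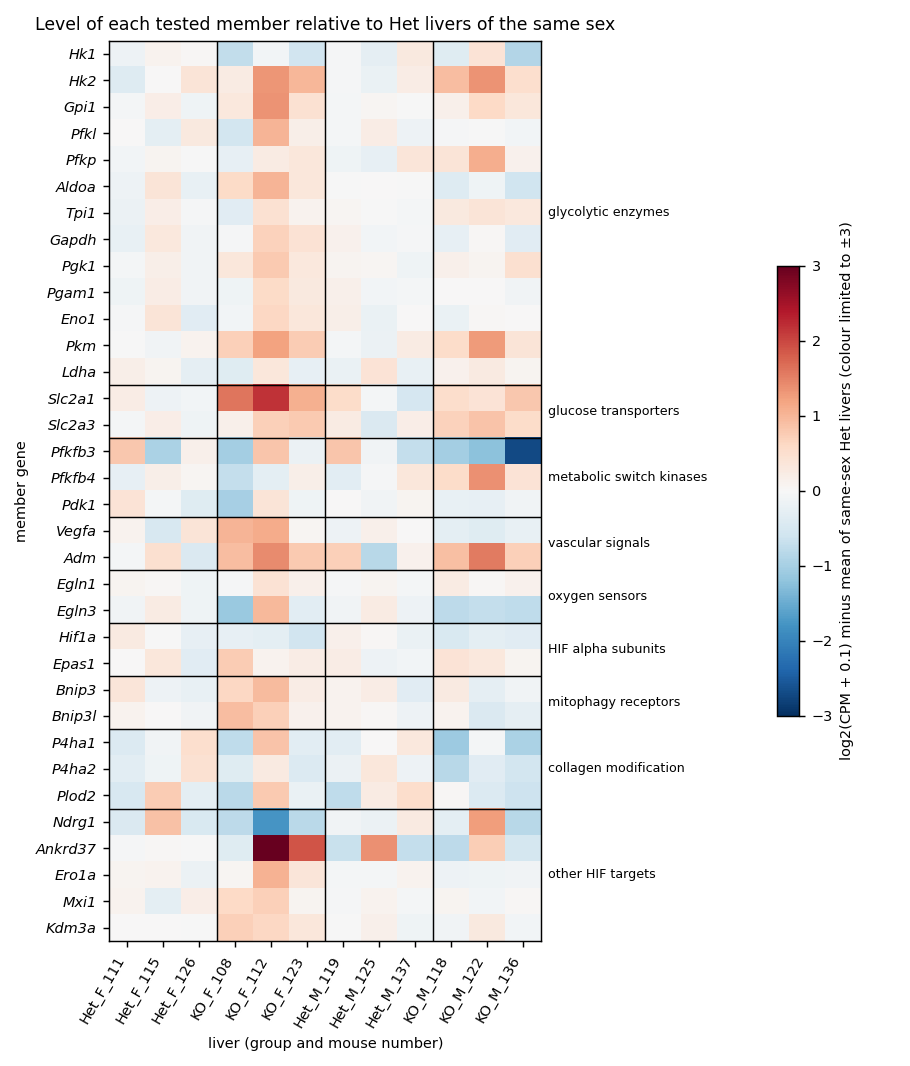
Level of the 34 tested members in each of 12 livers, as log2(CPM + 0.1) minus the mean of the 3 Het livers of the same sex. Rows are genes grouped by role, columns are livers, red is above and blue is below that mean, and the colour is limited to 3 in either direction, which the value of Ankrd37 in KO_F_112 (4.04) exceeds. KO_F_112 is red in most rows, with 30 of 34 members above 0.

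A single liver stood apart within the KO group. In KO_F_112, 30 of 34 members lay above the mean of the Het females, with a median difference of 0.72 on the log2 scale. The other 5 KO livers had 15 to 24 members above the Het mean of their sex and medians from -0.094 to 0.20. Het livers had 10 to 23 members above that mean. The TMM factor of KO_F_112, which scales its CPM values, was the lowest, at 0.885 beside 0.926 to 1.06 in the other livers. The share of all tested genes above that mean was not computed for single livers, and the part of scaling was not tested. Without KO_F_112 the number called higher was 5 (Slc2a1, Pkm, Hk2, Adm and Gpi1) and the number called lower was 2 (Hif1a and Egln3). Of all tested genes 10.6% were then called higher, and 1735 of 19227 were called lower. The calls of Slc2a1, Pkm, Hk2 and Adm held without any single mouse.

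Glycolysis begins when glucose crosses the plasma membrane. Slc2a1, which encodes the transporter GLUT1 (ENSMUSG00000028645.12, chromosome 4 from 118965908 to 118996365 in GRCm39), was at 9.52, 7.22 and 7.69 CPM in the Het_F livers and at 24.8, 36.6 and 17.0 CPM in the KO_F livers. In males it was at 12.6, 8.26 and 6.01 CPM with the Het genotype and at 12.5, 11.4 and 15.0 CPM with the KO genotype. The females did not overlap, and in males 1 Het liver lay among the KO livers. Its log2 fold change was 1.103 ± 0.21 over both sexes (adjusted p = 0.00389), 1.68 ± 0.30 in females (adjusted p = 0.00765) and 0.53 ± 0.29 in males (adjusted p = 0.297). The difference between the sexes had an unadjusted p of 0.0167 and an adjusted p of 0.472 in edgeR's interaction test.

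Slc2a3, which encodes the high-affinity transporter GLUT3 (ENSMUSG00000003153.11, chromosome 6 from 122704768 to 122778599), was scarce. It lay at 0.732, 0.893 and 0.691 CPM in Het_F, 0.867, 1.33 and 1.39 CPM in KO_F, 0.634, 0.358 and 0.608 CPM in Het_M and 0.905, 1.02 and 0.812 CPM in KO_M. Its males did not overlap, and its log2 fold change over both sexes was 0.66 ± 0.20 (adjusted p = 0.0314). The call was lost without Het_F_111 (adjusted p = 0.0631), Het_F_126 (0.0659), Het_M_125 (0.0782), KO_F_112 (0.0632), KO_F_123 (0.0646), KO_M_118 (0.0640) or KO_M_122 (0.0586), and also without a filter on low counts, with length-scaled counts and in both limma fits of log2 TPM.

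The hexokinase step traps glucose in the cell as glucose 6-phosphate. Hk2 (ENSMUSG00000000628.11, chromosome 6 from 82699740 to 82751469) was at 1.80, 2.40 and 3.17 CPM in Het_F and at 2.85, 6.16 and 4.88 CPM in KO_F. Among males it was at 1.43, 1.27 and 1.73 CPM with the Het genotype and at 2.87, 3.88 and 2.12 CPM with the KO genotype. The male groups did not overlap, and a single Het female lay above the lowest KO female. Over both sexes the log2 fold change was 0.93 ± 0.23 (adjusted p = 0.0132), with 0.89 ± 0.31 in females and 0.97 ± 0.33 in males, neither of them called alone. Hk1, the ubiquitous hexokinase, was at 2.76 to 5.51 CPM in Het and 1.77 to 4.83 CPM in KO livers, with a log2 fold change of -0.32 ± 0.22 (adjusted p = 0.306).

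Gpi1 (ENSMUSG00000036427.6, chromosome 7 from 33900755 to 33929780) encodes the isomerase that turns glucose 6-phosphate into fructose 6-phosphate. It lay at 83.8, 101 and 79.6 CPM in Het_F and 91.0, 99.2 and 95.03 CPM in Het_M. All 6 KO livers were higher, at 109, 223 and 120 CPM in females and 106, 143 and 121 CPM in males. Its log2 fold change was 0.57 ± 0.17 (adjusted p = 0.0284), and KO_F_112 had the highest level. The call was lost without Het_F_111 (adjusted p = 0.0632), Het_F_126 (0.0651), Het_M_119 (0.0613), Het_M_125 (0.0548), Het_M_137 (0.0603), KO_M_122 (0.0622) or KO_M_136 (0.0525).

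At the phosphofructokinase step, which commits sugar to glycolysis, neither of the isoforms among the members was called. Pfkl, the liver form, ranged from 25.8 to 39.1 CPM in Het and 21.6 to 64.4 CPM in KO livers (log2 fold change 0.14 ± 0.22, adjusted p = 0.680), and Pfkp, the platelet form, from 2.24 to 4.62 CPM and 2.93 to 5.83 CPM (0.36 ± 0.19, adjusted p = 0.203).

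Aldoa, the aldolase of muscle and many other tissues, had values of opposite sign in the sexes, neither of them called. In females it was at 60.1, 87.7 and 57.8 CPM with the Het genotype and 100.4, 135.8 and 84.9 CPM with the KO genotype. In males it was at 72.4, 72.8 and 72.4 CPM with the Het genotype and 55.8, 66.5 and 47.7 CPM with the KO genotype. Each KO male lay below each Het male. The log2 fold changes were 0.64 ± 0.20 in females (adjusted p = 0.0588) and -0.36 ± 0.20 in males (adjusted p = 0.308). Their difference of -0.9997 had the smallest interaction p of any member, 0.00425 unadjusted and 0.370 after adjustment.

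The next steps pass through triose phosphates to phosphoglycerate. Tpi1 had a log2 fold change of 0.21 ± 0.13 (adjusted p = 0.245) and Gapdh of 0.10 ± 0.14 (adjusted p = 0.656). Gapdh shares sequence with the retrotransposed copy Gapdhrt, on which 21.8 to 534 counts were placed in Het and 390 to 1587 in KO livers, beside 16882 to 28917 counts on Gapdh, so its level is uncertain to that extent. Pgk1, the first ATP-producing enzyme of the pathway (ENSMUSG00000062070.13, chromosome X from 105230706 to 105247305), was at 187, 221 and 181 CPM in Het_F, 233, 228 and 203 CPM in Het_M, 248, 340 and 243 CPM in KO_F and 245, 235 and 306 CPM in KO_M. Every KO liver exceeded every Het liver, although by little for KO_M_122. A log2 fold change of 0.37 ± 0.12 resulted (adjusted p = 0.0399), and the call was lost without Het_F_111 (adjusted p = 0.0905), Het_F_126 (0.0923), Het_M_119 (0.0665), Het_M_125 (0.0712), Het_M_137 (0.0969), KO_F_112 (0.0841), KO_M_118 (0.0668) or KO_M_136 (0.107), and with length-scaled counts.

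Pgam1 and Eno1, which rearrange and dehydrate phosphoglycerate, had log2 fold changes of 0.12 ± 0.12 (adjusted p = 0.524) and 0.12 ± 0.15 (adjusted p = 0.616). Pkm, the pyruvate kinase of most cells other than hepatocytes (ENSMUSG00000032294.18, chromosome 9 from 59563364 to 59586663), had the smallest p of all members. It lay at 16.7, 15.7 and 18.1 CPM in Het_F and 27.6, 38.9 and 28.7 CPM in KO_F. In Het_M it lay at 10.9, 10.05 and 13.4 CPM and in KO_M at 16.6, 27.6 and 14.8 CPM. Within each sex the genotypes did not overlap. Its log2 fold change was 0.84 ± 0.16 (adjusted p = 0.00372), with 0.91 ± 0.22 in females (adjusted p = 0.0265) and 0.78 ± 0.22 in males (adjusted p = 0.0572).

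Ldha, which turns pyruvate into lactate and is a standard readout of HIF activity, was at 519, 486 and 384 CPM in Het_F and 356, 581 and 390 CPM in KO_F. In males it was at 308, 473 and 302 CPM with the Het genotype and 389, 424 and 373 CPM with the KO genotype. The groups overlapped in both sexes, and the log2 fold change was 0.032 ± 0.16 (adjusted p = 0.907).

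**Figure D2:**
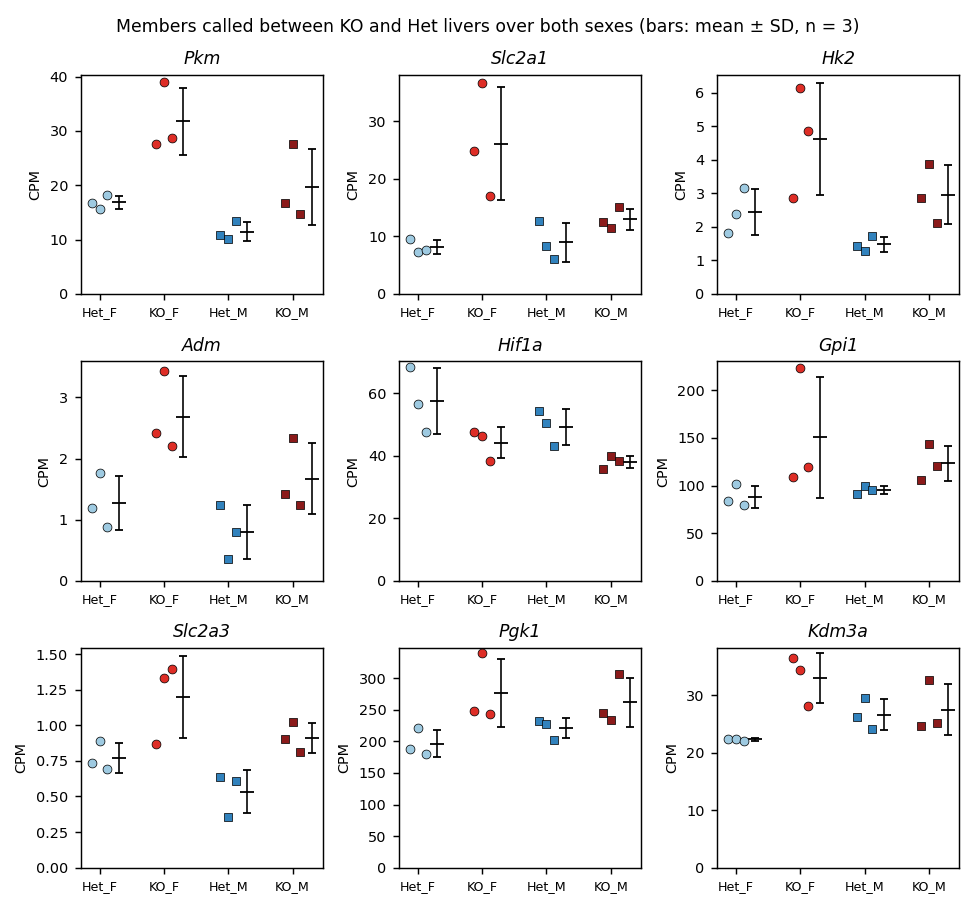
CPM of the 9 members called over both sexes in each liver, with 1 panel per gene, the 4 groups on the horizontal axis and the mean ± SD of 3 livers beside the points. KO livers of Gpi1 and Pgk1 lie above every Het liver, and Hif1a is the gene with lower KO levels.

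Per transcript length, in transcripts per 1000000 transcripts (TPM), the enzymes spanned a wide range in Het livers. Gapdh (396 ± 64.5 TPM, SD, n = 6) and Ldha (212 ± 59.3 TPM) were the highest. Tpi1 (111.06 ± 16.7 TPM), Eno1 (109 ± 20.9 TPM) and Pgk1 (89.9 ± 7.10 TPM) followed, with Tpi1 and Eno1 differing by less than their spread. Pgam1 (46.7 ± 4.68 TPM), Aldoa (41.9 ± 8.65 TPM) and Gpi1 (36.6 ± 5.15 TPM) were next, again with overlapping spreads between neighbours. Pfkl was at 7.24 ± 1.31 TPM, Pkm at 4.84 ± 1.42 TPM, Hk1 at 1.07 ± 0.39 TPM, Pfkp at 0.961 ± 0.322 TPM and Hk2 at 0.292 ± 0.108 TPM. Pkm and Hk2, the enzymes with the largest log2 fold changes, were thus among the least abundant.

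Among the metabolic kinases that steer glucose use, no member was called over both sexes. Pfkfb3, which makes the activator of phosphofructokinase, was at 27.5, 8.14 and 17.5 CPM in Het_F, 7.75, 28.1 and 13.9 CPM in KO_F, 62.0, 32.3 and 21.3 CPM in Het_M and 17.3, 14.8 and 5.25 CPM in KO_M. The females overlapped and the males did not, and the log2 fold change over both sexes was -0.86 ± 0.45 (adjusted p = 0.195). In TPM it was at 11.5 ± 8.39 in Het and 3.95 ± 1.29 in KO livers (SD, n = 6), and it was called lower where transcript length entered the fit. Its sister enzyme Pfkfb4 had a log2 fold change of 0.30 ± 0.23 (adjusted p = 0.379), with -0.24 ± 0.33 in females and 0.85 ± 0.34 in males. Pdk1, which keeps pyruvate out of mitochondria, had a log2 fold change of -0.18 ± 0.20 (adjusted p = 0.545), whose sign turned when transcript length entered the fit.

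Of the vascular signals, Adm rose and Vegfa was not called. Adm (ENSMUSG00000030790.16, chromosome 7 from 110226858 to 110229027) was at 1.18, 1.76 and 0.885 CPM in Het_F and 2.42, 3.44 and 2.20 CPM in KO_F. In males it was at 1.23, 0.358 and 0.799 CPM with the Het genotype and 1.43, 2.33 and 1.25 CPM with the KO genotype. Neither sex had overlapping genotypes, and the log2 fold change was 1.03 ± 0.28 (adjusted p = 0.0219), with 1.04 ± 0.38 in females and 1.01 ± 0.41 in males. Vegfa, the main growth factor of endothelium, was at 118.8, 78.3 and 144 CPM in Het_F and 222, 238 and 114.9 CPM in KO_F. The KO_M livers, at 103, 97.8 and 107.9 CPM, lay below the Het_M livers, at 111.97, 138 and 126.2 CPM. Its log2 fold changes were 0.75 ± 0.26 in females (adjusted p = 0.0808) and -0.29 ± 0.26 in males (adjusted p = 0.547), with an unadjusted interaction p of 0.0151.

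Among the HIF alpha subunits Hif1a fell and Epas1 was not called. Hif1a (ENSMUSG00000021109.14, chromosome 12 from 73948149 to 73996321) was at 68.5, 56.3 and 47.5 CPM in Het_F and 47.5, 46.3 and 38.4 CPM in KO_F. In Het_M it was at 54.3, 50.4 and 42.9 CPM and in KO_M at 35.8, 39.7 and 38.4 CPM. The males did not overlap and the females overlapped narrowly, with a log2 fold change of -0.38 ± 0.11 (adjusted p = 0.0247) that was nearly the same in females (-0.38 ± 0.15) and males (-0.37 ± 0.15). Without Het_F_111 (adjusted p = 0.0539), Het_M_119 (0.0548), Het_M_125 (0.0506) or KO_M_118 (0.0583) the call was lost, as in limma on log2(TPM + 1). Epas1, which encodes HIF-2 alpha, ranged from 156 to 263 CPM in Het and 183 to 355 CPM in KO livers, with a log2 fold change of 0.31 ± 0.15 (adjusted p = 0.148). These are RNA levels, and HIF alpha subunits are controlled chiefly as proteins, which were not measured here.

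Egln1 and Egln3 encode prolyl hydroxylases that mark the HIF alpha subunits. Egln1 had a log2 fold change of 0.17 ± 0.095 (adjusted p = 0.220). Egln3, itself a HIF target, was at 15.1, 19.4 and 14.9 CPM in Het_F and 7.47, 32.2 and 13.2 CPM in KO_F, with the highest value of all livers in KO_F_112. The KO_M livers at 7.52, 7.81 and 7.66 CPM lay below the Het_M livers at 12.1, 15.4 and 11.7 CPM. Its log2 fold change over both sexes was -0.33 ± 0.28 (adjusted p = 0.417), and without KO_F_112 it was -0.72 (adjusted p = 0.0115).

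Bnip3 and Bnip3l encode receptors that deliver mitochondria to autophagy. Bnip3l was at 71.8, 67.0 and 61.9 CPM in Het_F and 128, 110.3 and 73.3 CPM in KO_F, without overlap, and at 80.2, 76.5 and 66.8 CPM in Het_M and 79.6, 54.8 and 61.7 CPM in KO_M, with overlap. Its log2 fold change was 0.63 ± 0.20 in females (adjusted p = 0.0564) and -0.19 ± 0.20 in males, with an unadjusted interaction p of 0.0117. Bnip3 had 0.60 ± 0.23 in females (adjusted p = 0.110) and -0.031 ± 0.23 in males. The collagen-modifying enzymes P4ha1, P4ha2 and Plod2 had log2 fold changes of -0.30 ± 0.30, -0.38 ± 0.19 and -0.22 ± 0.34 over both sexes (adjusted p = 0.499, 0.164 and 0.678).

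Kdm3a, a histone demethylase (ENSMUSG00000053470.14, chromosome 6 from 71565956 to 71610472), was steady in Het_F at 22.4, 22.4 and 22.0 CPM and higher in KO_F at 36.5, 34.4 and 28.1 CPM. Males overlapped, at 26.2, 29.4 and 24.04 CPM with the Het genotype and 24.6, 32.6 and 25.2 CPM with the KO genotype. Its log2 fold change was 0.31 ± 0.10 over both sexes (adjusted p = 0.0471) and 0.56 ± 0.14 in females (adjusted p = 0.0294). The call over both sexes was kept without KO_F_123 and lost without any other single mouse, with adjusted p-values from 0.0551 (without Het_M_125) to 0.123 (without Het_M_137). It was also lost with RLE scaling, without a filter on low counts, in both limma fits and in the model without interaction. In females Kdm3a was not called with length-scaled counts or by limma. Ankrd37 was near 0.35 CPM in each Het_F liver (0.338, 0.357 and 0.346) and at 0.248, 7.24 and 1.55 CPM in KO_F. Its high female values came from 2 livers, and Het_M_125 (1.66 CPM) was above every KO male. The log2 fold change was 2.93 ± 0.98 in females (adjusted p = 0.0802) and -0.42 ± 0.99 in males (adjusted p = 0.843).

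The remaining targets were not called. Ndrg1, a stress-responsive gene, was at 15.4, 38.6 and 15.1 CPM in Het_F and 12.0, 6.07 and 11.9 CPM in KO_F, and its log2 fold change was -1.20 ± 0.54 in females (adjusted p = 0.174) and 0.32 ± 0.54 in males. Ero1a, an oxidase of protein folding in the endoplasmic reticulum, had 0.54 ± 0.20 in females and -0.13 ± 0.20 in males, and Mxi1, an antagonist of MYC, had 0.47 ± 0.17 and 0.011 ± 0.17.

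Glycolytic enzymes and the other members were then set side by side. Of 13 enzymes 4 rose and 0 fell, with 0 lower at an unadjusted p under 0.05 and 0 lower by DESeq2 and limma, and 12 of 13 had a positive log2 fold change. Of 21 other members 4 rose and 1 fell, and 13 of 21 had a positive value. The enzymes called higher were 30.8% and the others 19.0%, against the 12.2% of all tested genes. Called lower were 0% of the enzymes and 4.8% of the others, against 10.2% of all tested genes. DESeq2 called 2357 of 19316 genes lower, and limma 1530 or 1573 of 19350. At an unadjusted p under 0.05 were 6983 of 19350 genes, of which 3726 were higher. Positive values were 92.3% of the enzymes and 61.9% of the others, against 51.8% of all tested genes. The medians were 0.14 for enzymes and 0.22 for the others. In KO_M_122, 11 of 13 enzymes and 9 of 21 other members lay above the mean of the Het males, with medians of 0.26 and -0.090. The medians of enzymes and others were 0.14 and -0.11 in KO_M_118, 0.078 and -0.10 in KO_M_136, and 0.34 and 0.13 in KO_F_123. In KO_F_108 the order was reversed, with 5 of 13 enzymes above the mean of the Het females and medians of -0.088 and -0.032. In KO_F_112 the medians of both sets were alike, 0.70 and 0.72.

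Taken by sex, 3 members rose in females, namely Slc2a1, Pkm and Kdm3a, which is 8.8% of the members beside 5.94% of all tested genes. None fell by edgeR, beside 5.10% of all tested genes, or by DESeq2, beside 8.32% of all genes with an adjusted p in that test. At an unadjusted p under 0.05 by edgeR the numbers were 15 higher (44.1% of the members beside 15.2% of all tested genes) and 1 lower (2.94% beside 13.8%). The female genotypes did not overlap for 7 higher members, 20.6% beside 15.8% of all tested genes, and for 1 lower member, Ndrg1, beside 14.7%. DESeq2 called 10 members higher in females, 29.4% beside 9.13% of all genes with an adjusted p in that test. Without KO_F_112, Het_F_111 or Het_F_126 only Slc2a1 was called in females, beside 3.22%, 2.88% and 2.67% of all tested genes called higher. Without KO_F_123 or KO_F_108 the number was 8 or 5, beside 7.32% and 2.44% of all tested genes. The median log2 fold change in females was 0.35 over the members and 0.0053 over all tested genes.

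In males 0 members were called by edgeR, beside 4.47% of all tested genes called higher and 2.98% called lower. At an unadjusted p under 0.05 there were 5 higher (14.7% of the members beside 13.4% of all tested genes) and 3 lower (8.82% beside 10.7%), shares near those of all genes. DESeq2 called 2 higher (Hk2 and Pkm, 5.88% beside 6.77%) and 1 lower (Pfkfb3, 2.94% beside 5.40%). Without KO_M_136 edgeR called 1 higher, Pkm, beside 2.85% of all tested genes. The male genotypes did not overlap for 8 members with higher KO levels, 23.5% beside 16.8% of all tested genes, of which 5 were enzymes. They did not overlap for 8 members with lower KO levels, 23.5% beside 15.4%, of which 1 was an enzyme, Aldoa. The median log2 fold change in males was -0.036 over the members, 0.13 over the enzymes and -0.13 over the other members.

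The difference between the sexes was tested as an interaction. By edgeR, DESeq2 and limma 0 members were called, beside 0.0465% of all tested genes by edgeR. DESeq2 called 104 genes with a higher and 58 with a lower log2 fold change in males, of 15940 with an adjusted p. Limma called 28 and 20 of 19350 genes on log2(TPM + 1), and 21 and 9 on log2(TPM + 0.1). At an unadjusted p under 0.05 there were 7 members with a lower log2 fold change in males, Slc2a1, Aldoa, Bnip3l, Vegfa, Kdm3a, Ero1a and Ankrd37, beside 4.34% of all tested genes. A single member, Pfkfb4, was higher in males on that measure, beside 4.94% of all tested genes. In 25 of 34 members the log2 fold change was lower in males than in females, beside 9371 of all 19350 tested genes. KO_F_112 enters each of these values.

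**Figure D3:**
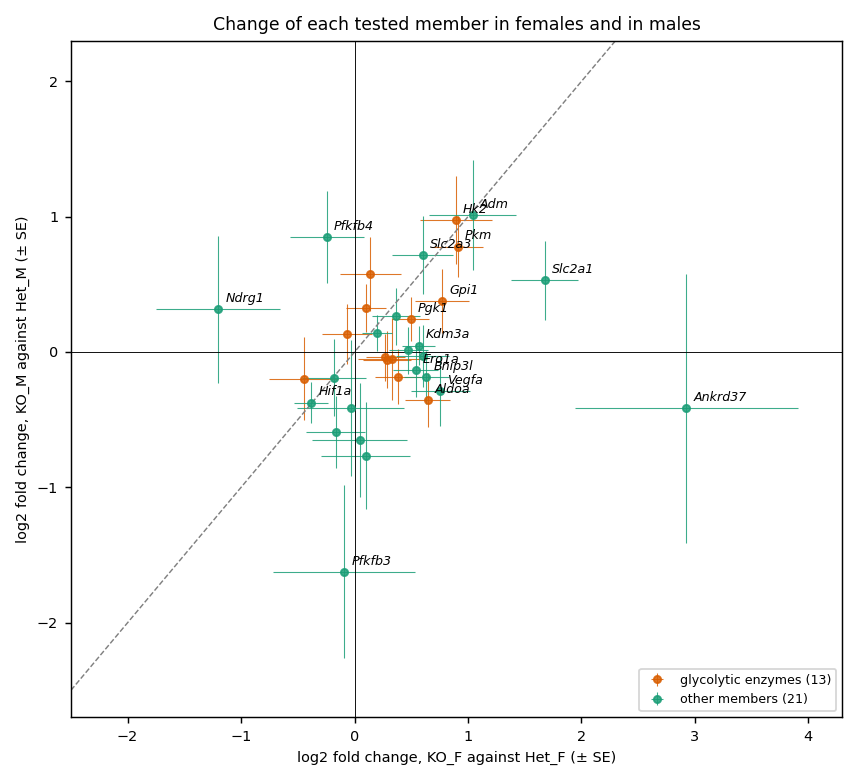
Log2 fold change of KO against Het in females (horizontal) and in males (vertical) for the 34 tested members, with SE bars, enzymes in orange and other members in green, and equal changes on the dashed line. Adm, Hk2, Pkm and Slc2a3 lie near the line in the upper right, and Slc2a1, Ankrd37, Vegfa and Aldoa lie below it.

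The isoforms that carry out the same step were compared within each liver as a ratio of TPM values on the log2 scale (0.1 TPM added to each), with genotype permuted exactly within sex. Results are given for 6 pairs, with p-values adjusted over the 9 pairs tested, and the smallest unadjusted p this allows is 0.005. Pkm relative to Pklr was -3.04 ± 0.81 in Het and -1.25 ± 1.02 in KO livers (SD, n = 6), a rise of 1.79 (exact adjusted p = 0.015). The genotypes overlapped, as the highest Het ratio was -1.90 and the lowest KO ratio -2.26. Mean Pklr was lower with the KO genotype (22.1 ± 8.67 TPM) than with the Het genotype (42.1 ± 17.1 TPM). Pklr was not called (log2 fold change -0.96 ± 0.35, adjusted p = 0.0766, edgeR). The rise of the ratio thus combined higher Pkm with lower Pklr. In KO_F_108 the ratio was 0.51, the only liver where Pkm exceeded Pklr. Pkm was at 10.4 TPM in KO_F_108, below the 12.7 TPM of KO_F_112, and the lowest Pklr level among KO livers was 7.27 TPM. Slc2a1 relative to Slc2a2 differed by 1.59 (exact adjusted p = 0.015), with Het ratios from -6.16 to -5.06 and KO ratios from -4.84 to -2.30, without overlap.

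For lactate dehydrogenase, the ratio of Ldha to Ldhb was lower in KO livers by a log2 difference of -1.04 (exact adjusted p = 0.03). Ldhb, the heart form, was scarce, at 0.752 ± 0.188 TPM in Het and 1.83 ± 0.881 TPM in KO livers, and with 1 TPM added the difference was -0.60 (exact adjusted p = 0.09). It also missed the threshold without any of 6 single mice, Het_F_111, Het_F_115, Het_M_125, Het_M_137, KO_F_108 or KO_M_136 (exact adjusted p from 0.0525 to 0.0771). Hif1a relative to Epas1 had a difference of -0.70 (exact adjusted p = 0.0225). The pairs Eno1 and Eno3 (-0.59, exact adjusted p = 0.0514, and 0.027 without Het_F_126 or 0.036 without Het_M_125) and Pfkp and Pfkl (-0.15, exact adjusted p = 0.669) did not pass the threshold.

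**Figure D4:**
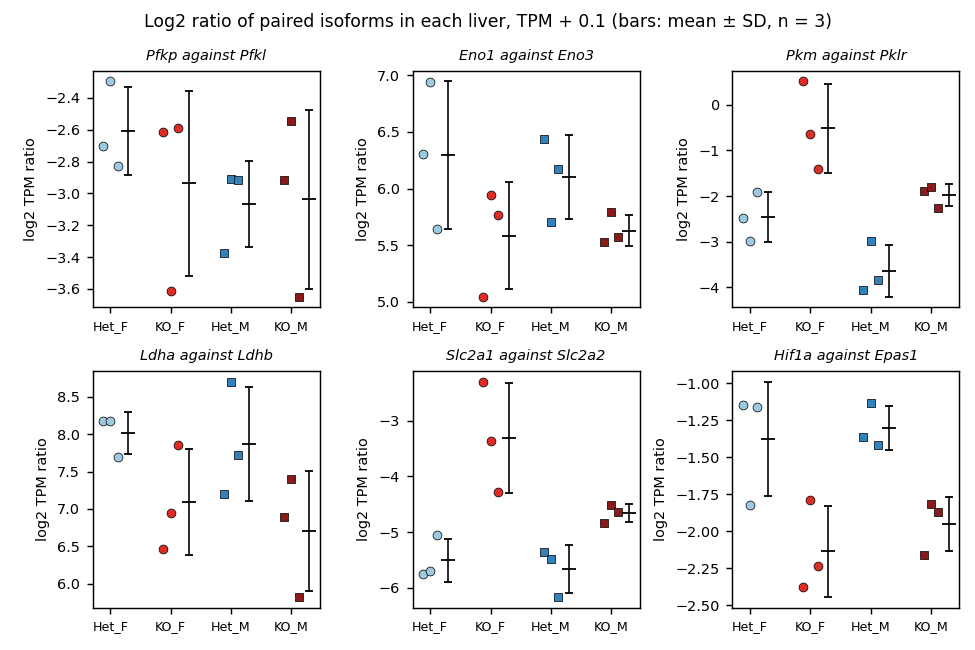
Log2 ratio of TPM (0.1 added) of 6 isoform pairs in each of 12 livers, with 1 panel per pair, the 4 groups on the horizontal axis and the mean ± SD of 3 livers beside the points. Slc2a1 against Slc2a2 shows no overlap between genotypes, with KO ratios higher.

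Further genes of these pathways were counted from lists, and their shares stand beside the 12.2% of all tested genes called higher and the 10.2% called lower. Of 19 liver-type and alternative glycolysis isoforms 17 were tested, 4 rose (23.5%) and 1 fell (5.9%). The 3 with the smallest p were Pfkfb1, the liver form of the bifunctional regulator (0.48 ± 0.12, adjusted p = 0.0126), Ldhb (1.12 ± 0.27, adjusted p = 0.0127) and the muscle enolase Eno3 (0.59 ± 0.15, adjusted p = 0.0158). Of 8 gluconeogenesis enzymes 3 rose (37.5%) and 2 fell (25.0%). Fructose bisphosphatase Fbp1, which opposes phosphofructokinase, fell from a median of 577 to 333 CPM (-0.74 ± 0.14, adjusted p = 0.00389), the mitochondrial carboxykinase Pck2 rose (0.73 ± 0.19, adjusted p = 0.0169) and the malate dehydrogenase Mdh1 fell (-0.37 ± 0.097, adjusted p = 0.0178).

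Of 13 genes of the HIF machinery 12 were tested, 3 rose (25.0%) and 1 fell (8.3%). Cul2, the scaffold of the ligase that destroys HIF alpha, was at 23.9 to 29.7 CPM in Het and 14.5 to 19.5 CPM in KO livers without overlap (-0.56 ± 0.091, adjusted p = 0.00171). Hif3a, a HIF alpha subunit that can oppose the others, was at 0.064 to 0.5003 CPM in Het and 0.634 to 1.64 CPM in KO livers (1.63 ± 0.33, adjusted p = 0.00568). The prolyl hydroxylase Egln2 rose as well (0.48 ± 0.13, adjusted p = 0.0200). It had 0.74 ± 0.18 in females (adjusted p = 0.0261) and 0.22 ± 0.18 in males (adjusted p = 0.504). Of 34 further HIF-responsive genes 31 were tested, 6 rose (19.4%) and 3 fell (9.7%, close to the share of all genes), with a median log2 fold change of -0.058. Hmox1, which breaks down haem (1.46 ± 0.23, adjusted p = 0.00180), the mTORC1 inhibitor Ddit4 (3.17 ± 0.62, adjusted p = 0.00697) and the pseudokinase Trib3 (1.26 ± 0.28, adjusted p = 0.0100) had the smallest p. All 3 also respond to other stresses. In females their log2 fold changes were 2.11 ± 0.33, 4.54 ± 0.93 and 1.40 ± 0.40 (adjusted p = 0.00527, 0.0185 and 0.0484). In males these were 0.80 ± 0.33, 1.80 ± 0.84 and 1.13 ± 0.40 (adjusted p = 0.161, 0.228 and 0.113). The interaction test called none of the 3 (adjusted p = 0.461, 0.527 and 0.908).

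Markers of cell types were counted in the same livers, beside the 12.2% of all tested genes called higher and the 10.2% called lower. Of the 8 hepatocyte markers, whose sums are given above, 1 was called higher (12.5%) and 2 lower (25.0%). The 8 Kupffer cell and macrophage markers summed to 133 to 351 CPM in Het and 182 to 553 CPM in KO livers, with 4 of 8 called higher. By sex, 0 of these 8 markers were called higher in females and 2 in males, beside 5.94% and 4.47% of all tested genes. Their median log2 fold change was 0.33 in females and 0.99 in males. All 8 had a higher log2 fold change in males than in females, and the interaction test called 0 of them. The 8 endothelium markers summed to 194 to 343 CPM in Het and 148 to 264 CPM in KO livers, with 3 of 8 called lower (37.5%). Those of stellate cells and fibroblasts summed to 265 to 496 and 146 to 301 CPM, with 2 of 8 called lower (25.0%). The 9 pericentral hepatocyte markers summed to 6385 to 9938 CPM in Het and 3890 to 5757 CPM in KO livers, with 5 called lower (55.6%) and 1 higher (11.1%). The 9 periportal markers summed to 5621 to 10877 and 8443 to 15953 CPM, with 1 called higher (11.1%). Of these sums Pck1 alone was 1234 to 5019 CPM in Het and 3446 to 9256 CPM in KO livers, and it was not called (adjusted p = 0.0978, edgeR).

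Markers of further cell types were summed in the same way, and their shares stand beside the same shares of all tested genes. Neutrophil and monocyte markers summed to 2.60 to 8.19 CPM in Het and 4.96 to 8.57 CPM in KO livers (1 of 7 tested higher, 14.3%). Lymphocyte markers summed to 1.47 to 5.16 and 0.960 to 4.43 CPM (1 of 8 lower, 12.5%). Proliferation markers summed to 3.48 to 11.5 and 4.90 to 18.9 CPM (none of 8 called). Cholangiocyte markers summed to 30.2 to 61.4 and 16.2 to 52.2 CPM (none of 6 called). Erythroid markers summed to 113 to 486 and 83.4 to 202 CPM (1 of 7 tested higher and 1 lower, 14.3% each). No marker was without a count in all livers. Pkm, Hk2, Slc2a1, Slc2a3 and Adm are expressed by macrophages and vessels. Their cell source in these livers and the part of cell composition in their values were not tested. In bulk livers, fewer cells of a type and less RNA per cell cannot be told apart.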

How the data were processed

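Livers of 12 mice (3 per sex and genotype) were grouped by genotype and sex as the labels give them. The authors isolated RNA with TRIzol, depleted rRNA, prepared stranded libraries and ran nf-core/rnaseq, with STAR (2.7.9a) alignment to GRCm39, GENCODE annotation and Salmon (1.10.1). They deposited estimated counts per gene, which are not whole in 12.0% of values and were rounded here, length-scaled estimated counts, and TPM. Totals per liver ran from 30044812 to 43634073.

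Following the study's design, genes with at least 5 reads, at the median library size, in at least 3 livers were fitted with edgeR 4.0.16 (R 4.3.3) quasi-likelihood F tests with TMM factors, prior count 2, robust estimation and the 4 groups as terms. The newer quasi-likelihood method of edgeR was used in place of the older one, which is the default of this version and for which the study names no change. SE is the fold change divided by the square root of F. Adjustment was by Benjamini-Hochberg over all tested genes. CPM used TMM factors. Ratios of isoforms used log2(TPM + 0.1) and exact permutations within sex (400 arrangements, two-sided), adjusted over 9 pairs, of which 3 are not reported here. DESeq2 1.42.0, limma 3.58.1 and other settings were alternatives, and scripts were tested on simulated counts. All 35 members are named, as are the 3 called genes with the smallest p of each pathway list, the isoforms of the pairs described, Xpa and Ercc8, and cell type markers are given as sums and counts. Gapdhrt and, among the cell type markers, Pck1 were named after their values were seen. Members and lists were chosen with earlier results of these data known. Gene coordinates come from GENCODE on GRCm39 and promoter sequences from RefSeq on GRCm38.p6. Batches are not given in the sources used here, and p-values rest on 12 separate mice.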

Additional observations from a re-analysis of the deposited data

How the results depend on the processing

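Over both sexes Slc2a1, Pkm, Hk2 and Adm were called under all 21 alternatives. With 1 mouse left out at a time, the number called higher ran from 4 to 8, beside 8.81% to 11.5% of all tested genes. The number called lower ran from 0 to 2, beside 1502 of 19196 to 2083 of 19212 tested genes. Enzymes higher ran from 2 to 4, others higher from 2 to 4 and others lower from 0 to 2. In females 1 to 8 were called higher, beside 2.44% to 7.32% of all tested genes, and in males 0 to 1, beside 1.68% to 3.32%. Without a filter on low counts and with limma on log2(TPM + 1) or log2(TPM + 0.1), 2 other members were called higher. The shares of all tested genes called higher in these fits were 6.29%, 8.91% and 9.46%. With length-scaled counts and with limma on log2(TPM + 0.1), 2 members, Hif1a and Pfkfb3, were called lower, both of them other members. Over all tested genes these fits called 1787 of 19465 and 1573 of 19350 lower. DESeq2 called 10 higher in females, 2 higher in males and 1 lower in males, and limma on log2(TPM + 0.1) called 1 higher in males (Pkm). Of all genes in these comparisons 9.13%, 6.77%, 5.40% and 4.28% were called in the same direction.

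Among uncalled genes the sign turned for Pdk1 (0.12 with length-scaled counts, 0.11 with limma on log2(TPM + 1) and 0.11 on log2(TPM + 0.1)), and with a mouse left out for Pfkl (-0.11 to 0.28), Plod2 (-0.50 to 0.020) and Ldha (-0.090 to 0.14). The ratios with a mouse left out ran from -0.27 to 0.019 for Pfkp to Pfkl, -0.76 to -0.43 for Eno1 to Eno3 and -1.24 to -0.82 for Ldha to Ldhb, which was -0.60 with 1 TPM added. The causes were not tested. The older quasi-likelihood method, chosen after seeing the data, called the same 8 higher and 1 lower. No paired analysis was possible because the labels do not say which mice shared a litter.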
